A study of Mus musculus with 8 samples.

Results

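The media supernatant was compared with whole cardiomyocyte media on 5 of the 8 bead arrays of the series. All probes of the deposited table before normalization were used. The samples were chosen by their labels alone, 2 arrays of fibroblasts incubated with the supernatant and 3 arrays of fibroblasts incubated with cardiomyocyte media. The fibroblasts were NIH 3T3 cells, an established line from mouse embryo, and the media came from HL-1 cells, a contracting line derived from a tumour of the mouse atrium. Both groups therefore received Claycomb media, the growth media of HL-1 cells, that had been conditioned by cardiomyocytes, and RNA was taken after 24 h. For the supernatant, slower spins removed cell debris and an ultracentrifugation of 2 h pelleted smaller particles before the media was transferred. The study used this step to tell signals carried by vesicles from soluble ones. A further group of 3 arrays, fibroblasts with unused Claycomb media, was in the fit and is given as another level. No array of unused media that was itself centrifuged, or of fibroblasts given the pellet, was analysed here, so the effect of the spin and that of the missing pellet cannot be told apart. Whether the arrays of a group came from separate cultures is not said in the sources used here, so p-values measure only the spread between arrays.

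Cells release membrane vesicles, such as exosomes, that carry proteins, lipids and RNA, and a long spin at high speed removes many of them from media while leaving most soluble proteins in place. Fibroblasts respond to soluble growth factors and cytokines by dividing, by secreting matrix and by releasing chemokines. Genes of mitosis and many of DNA replication are expressed mainly in dividing cells, so their RNA in a culture depends in part on the share of cells in cycle. Genes of cholesterol synthesis are driven by SREBP2 when sterols in the membrane run low. In bulk RNA, fewer cells with a transcript and less of it in each cell cannot be told apart.

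Between 10956 and 11758 probes were detected on an array with the supernatant, 10648 to 11576 with cardiomyocyte media and 10545 to 11157 with unused media, out of 25697. The arrays lay on 2 chips, and chip 1 held replicate 1 of the supernatant, replicate 1 of cardiomyocyte media and all arrays of unused media. The ratio of the median detected signal to background was 2.82 to 3.26 on chip 1, and on chip 2 it was 3.94 to 5.09. The small number of arrays limits the precision of all values. The median bead standard error of detected probes was 9.34% of the signal on unused media replicate 3 and 4.26% to 5.19% on the other arrays. That array also had the lowest array weight (0.33), and it enters the spread that the fit shares over all groups. The level of 371 of 8885 tested genes differed with chip, so chip was a term of the fit. Of 12 tested cardiomyocyte markers none passed the test (2 lower at an unadjusted p under 0.05). Their summed signal was 329 to 406 with the supernatant, 422 to 449 with cardiomyocyte media and 408 to 648 with unused media. Of the 28 markers with a probe, Tnni3, Actc1, Actn2, Nppb, Ryr2, Myl2, Myl3, Pln, Sln, Ttn, Ckm, Hand2 and Mybpc3 were detected on no array. The atrial transcripts Nppa and Myl7 were detected on neither array with the supernatant and on 2 of 3 with cardiomyocyte media (replicates 2 and 3), with adjusted p of 0.193 and 0.179. The part of carried-over cardiomyocyte RNA in the results below was not tested. Of 18 tested fibroblast markers none was higher and 4 were lower with the supernatant (S100a4, Fap, Lum and Vim). These are 22.2% of the list, where 3.98% of all tested genes were lower. The fibroblast markers were detected with summed signals of 60544 to 73651 with the supernatant, 70432 to 85323 with cardiomyocyte media and 56547 to 67508 with unused media. The 4 calls ended without any 1 of supernatant replicates 1 and 2 and cardiomyocyte media replicate 1 (adjusted p = 0.0663 to 0.437), and some also without another array (Fap without cardiomyocyte media replicate 2, Lum and Vim without replicate 3, Vim without unused media replicate 1).

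Signals are given in fluorescence units, normalized between arrays. Fold changes are on the log2 scale after an offset of 16 was added, which understates the change of dim genes, and a positive value means higher with the supernatant. Of 8885 tested genes, 614 differed between the supernatant and cardiomyocyte media at an adjusted p under 0.05 (6.91%, limma with Benjamini-Hochberg adjustment). The supernatant gave higher levels of 260 genes (2.93%) and lower levels of 354 (3.98%). At an unadjusted p under 0.05 there were 1658. The 2 groups did not overlap for 2882 genes (32.4%). An exact two-sided rank test of 2 against 3 arrays cannot go below p = 0.2, so limma's fit across all genes was used. Of the calls, 120 higher and 215 lower genes changed by over 2-fold, and the smallest called difference was 0.61 on the log2 scale. The median over all tested genes was 0.02. All 614 genes had the same sign on chip 1, where replicate 1 of the supernatant met replicate 1 of cardiomyocyte media, as on chip 2, where replicate 2 met replicates 2 and 3. The fit that called them combines the differences on both chips, so the shared sign follows largely from the selection. No gene passed a test of whether the difference itself depended on chip (limma, 79 at an unadjusted p under 0.05). With 1 supernatant array on each chip, that test has little power and cannot show that the difference was alike on both. The counts leaned on single arrays. Without supernatant replicate 2, 37 genes were higher and 67 lower, and without either supernatant replicate 1 or cardiomyocyte media replicate 1, 45 and 113. Without cardiomyocyte media replicate 2, 154 were higher and 257 lower, and without unused media replicate 3, 408 and 466. In the fits that each left out 1 array, 81 of the 614 passed every time.

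The largest rises were of genes with a low signal with cardiomyocyte media and a high one with both other media. Prokr1, a G protein-coupled receptor for prokineticins (chromosome 6, 87578586 to 87590762 of GRCm38.p6), had signals of 370 and 554 with the supernatant, against 18, 55.5 and 38.3 with cardiomyocyte media, where 2 of 3 arrays detected it. With unused media it had 373, 328 and 362. The log2 fold change of supernatant over cardiomyocyte media was 3.33 (standard error 0.18, adjusted p = 3.94e-06 from limma), and a second probe gave 1.77. The supernatant arrays reached or passed the level of unused media. Angptl7, a secreted angiopoietin-like protein, had signals of 897 and 688 with the supernatant, against 74.6, 80.9 and 91.8 with cardiomyocyte media and 642, 534 and 559 with unused media (log2 fold change 3.02, standard error 0.19, adjusted p = 9.44e-06). Gstm1, a glutathione transferase that detoxifies electrophiles, had 3212 and 2208 with the supernatant, against 456, 406 and 306 with cardiomyocyte media and 2060, 2508 and 2369 with unused media. Its log2 fold change was 2.67 (standard error 0.19, adjusted p = 1.87e-05), while a second probe of the gene gave 0.62. Diras2, a small GTPase of the Ras family, was higher still than with unused media, with 690 and 793 against 129, 125 and 141 with cardiomyocyte media and 417, 349 and 313 with unused media. Dnmt3l, a cofactor of DNA methylation, had 155 and 233 against 17.1, 39.0 and 32.5 with cardiomyocyte media (detected on 2 of 3 arrays) and 277, 273 and 308 with unused media. The supernatant and cardiomyocyte media did not overlap for any of these genes, as was so for 604 of the 614 called genes. That separation follows largely from choosing genes by this same difference, and it held for 32.4% of all tested genes.

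Several of these genes fell below detection with cardiomyocyte media, so their folds are lower bounds. Each sets the mean with the supernatant against a floor, which on each array is the lowest signal of any detected probe, or the gene's own signal where that is higher. Prss35, a serine protease-like secreted protein, had 209 and 235 with the supernatant and was detected on no array with cardiomyocyte media (10.8, 13.5 and 13.3), at least 6.94-fold higher. The chitinase-like protein Chil1 had 135 and 140 with the supernatant and was likewise undetected with cardiomyocyte media, at least 4.49-fold higher. Chil1 stood at 520, 293 and 231 with unused media, above both arrays of the supernatant. Tmem100, a membrane protein of endothelium and lung mesenchyme, was at least 4.44-fold higher and the unannotated transcript 5031410I06Rik at least 5.14-fold. Aspg, an asparaginase, was detected on 1 of 3 arrays with cardiomyocyte media and was also higher (log2 fold change 2.73, standard error 0.18, adjusted p = 1.45e-05).

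The 10 genes with the largest falls included Prelp, Aqp1, Nnmt, Fbln1 and the chemokines Ccl11 and Ccl9, and all 10 had a higher signal with whole cardiomyocyte media than in both other groups. Prelp, a leucine-rich proteoglycan that anchors basement membrane to connective tissue (chromosome 1, 133910304 to 133930102), had signals of 136 and 162 with the supernatant, against 1728, 2511 and 2184 with cardiomyocyte media. With unused media it had 299, 236 and 289. Its log2 fold change was -3.64 (standard error 0.18, adjusted p = 3.25e-06), 12.4-fold lower, and both supernatant arrays lay below all arrays of the other groups. Aqp1, a water channel, had 332 and 432 with the supernatant, against 2899, 4713 and 4046 with cardiomyocyte media and 709, 379 and 467 with unused media (log2 fold change -3.20, standard error 0.24). Its other 2 probes gave -3.27 and -3.42. Fbln1, a glycoprotein of elastic fibres, had 25.8 and 52.9 with the supernatant, against 323, 433 and 459 with cardiomyocyte media and 43.5, 29.0 and 19.2 with unused media (log2 fold change -2.86, with -1.15 at a second probe). Nnmt, which methylates nicotinamide, had 11.9 and 16.3 with the supernatant, near background and detected on 1 of 2 arrays, against 219, 299 and 294 with cardiomyocyte media (log2 fold change -3.19, with -1.67 at a second probe). The other large falls were those of the integrin beta-like protein Itgbl1 (-3.10), Plac8 (-2.95) and Prg2, the granule protein of eosinophils (-2.81). The G protein subunit Gngt2 was detected on neither array with the supernatant and was at least 5.75-fold lower, with a log2 fold change of -0.64 at its second probe.

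**Figure D1:**
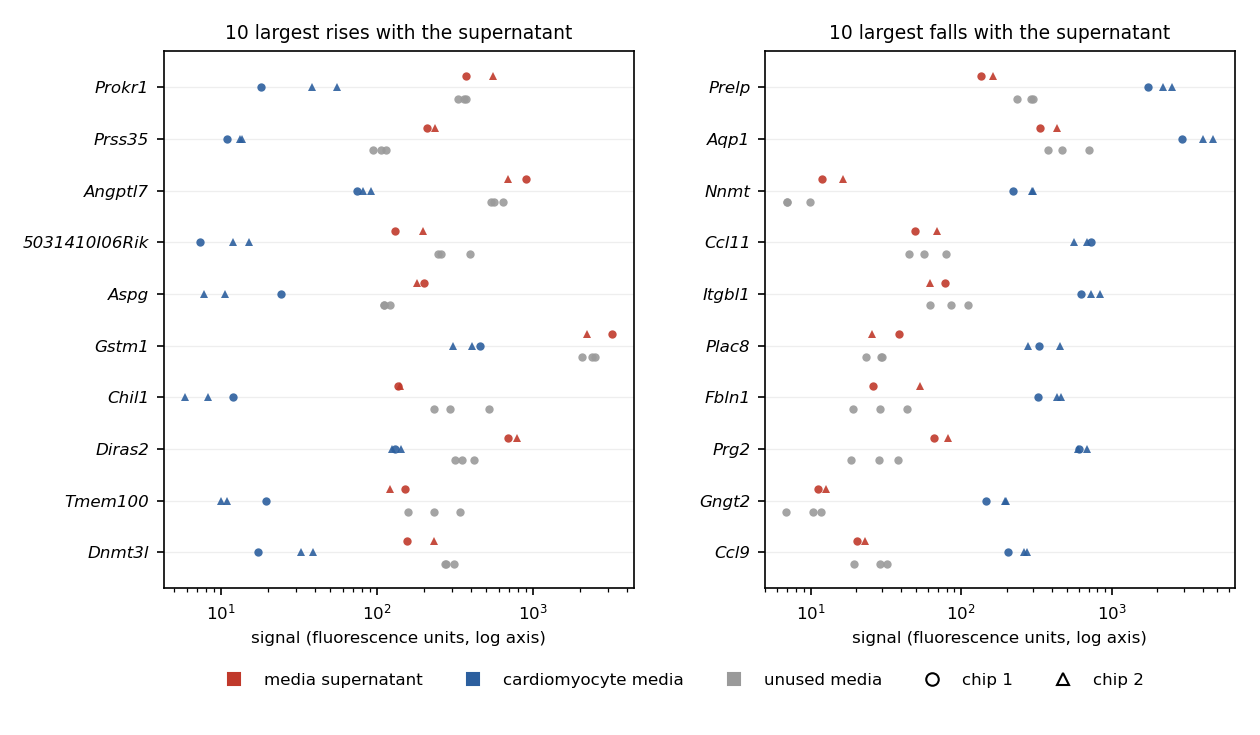
Signal of the 10 genes with the largest rise (left) and the 10 with the largest fall (right) with the media supernatant against cardiomyocyte media; each point is 1 array on a log axis, in red for the supernatant, blue for cardiomyocyte media and grey for unused media, with circles for chip 1 and triangles for chip 2. Prokr1 lies at 370 and 554 with the supernatant and at 18 to 55.5 with cardiomyocyte media, and Prelp at 136 and 162 against 1728 to 2511.

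Genes of cell division were lower with the supernatant. Among 27 tested mitosis genes there were 26 falls and no rise, with a median log2 fold change of -1.42 over the list, against 0.02 over all genes. The falls are 96.3% of the list, where 3.98% of all tested genes fell. The remaining member, the securin Pttg1, had -0.67 (adjusted p = 0.061). No member of the mitosis, DNA replication, histone or collagen lists was higher at an unadjusted p under 0.05 (limma), and no member of the cholesterol, fatty acid, NRF2 or hyaluronan lists was lower. Both supernatant arrays lay below all cardiomyocyte media arrays for each of the 27, which held for 15.4% of all tested genes, and below all arrays of cardiomyocyte media and of unused media for 25 of them, which held for 5.31%. The summed signal of the list was 11704 to 12792 with the supernatant, 29654 to 31437 with cardiomyocyte media and 25668 to 29698 with unused media. The list's median was -1.43 within chip 1 and -1.35 within chip 2. Against unused media, the list had a median log2 difference of -1.19 with the supernatant and 0.12 with cardiomyocyte media, comparisons that share the arrays of unused media.

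Bub1b, a kinase of the spindle checkpoint, had signals of 54.6 and 75.4 with the supernatant, against 209, 294 and 289 with cardiomyocyte media and 148, 130 and 142 with unused media. Its log2 fold change was -1.72 (standard error 0.16, adjusted p = 1.26e-04). Kif22, a kinesin that moves chromosomes, had 236 and 282 with the supernatant, against 779, 820 and 862 with cardiomyocyte media and 712, 671 and 719 with unused media (-1.58, standard error 0.16). Aurka, a kinase of the centrosome and spindle, had 315 and 336 with the supernatant, against 893, 1034 and 1175 with cardiomyocyte media and 809, 784 and 755 with unused media (-1.58, standard error 0.16). For each of these genes the supernatant stood apart from both other groups. Plk1, a kinase that drives entry into mitosis, had -1.64 (standard error 0.19), Cdc20, the activator of the anaphase-promoting complex, -1.28 (standard error 0.18), and the spindle motor Kif11 -1.30 (standard error 0.19), all named after their values were seen. The calls of Plk1 and Cdc20 ended without supernatant replicate 2 (adjusted p = 0.0569 and 0.0814) and that of Kif11 without either array of the supernatant or without cardiomyocyte media replicate 1 (adjusted p = 0.0634 to 0.0657). Without supernatant replicate 2, 10 genes of the list were called, and 15 without supernatant replicate 1 or cardiomyocyte media replicate 1. In the fits that each left out 1 array, 8 passed every time.

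Genes of DNA replication were lower as well, with falls of 30 among 40 tested and no rise (median log2 fold change -0.97). The falls are 75% of the list, where 3.98% of all tested genes fell. Tk1, the thymidine kinase of S phase, had signals of 391 and 381 with the supernatant, against 1299, 1346 and 1622 with cardiomyocyte media and 1184, 1223 and 999 with unused media. Its log2 fold change was -1.82 (standard error 0.18, adjusted p = 1.82e-04), with -1.28 at a second probe. Uhrf1, which carries DNA methylation through replication, had 745 and 743 with the supernatant, against 2459, 2410 and 2092 with cardiomyocyte media and 1457, 1533 and 1601 with unused media (-1.63, standard error 0.16). Mcm10, a factor of the replication fork, had 165 and 194 against 588, 659 and 561 with cardiomyocyte media and 432, 426 and 461 with unused media (-1.64, standard error 0.17). The supernatant was lowest on both arrays for all 3 genes. Members that did not pass the test included the helicase subunits Mcm2 (-0.67), Mcm4 (-0.53) and Mcm7 (-0.16). Without supernatant replicate 2, 9 of the list were called, and 13 without supernatant replicate 1 or cardiomyocyte media replicate 1. Histone genes are near-identical to each other, so that a probe can read several of them. With that limit, 15 of 33 tested fell (8 of them H2A genes) and none rose (median -0.83). This is 45.5% of the list, against 3.98% of all tested genes. H2ac11 had 174 and 216 with the supernatant, against 604, 664 and 499 with cardiomyocyte media and 394, 486 and 451 with unused media (-1.50, standard error 0.19, adjusted p = 8.57e-04). Without supernatant replicate 2, 3 histone genes were called, and 4 without supernatant replicate 1 or cardiomyocyte media replicate 1.

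Cyclins and inhibitors of the cell cycle were split. Cyclin D1 (Ccnd1), which carries growth signals into the cycle, had 769 and 715 with the supernatant, against 1512, 1581 and 1561 with cardiomyocyte media and 1637, 1527 and 1448 with unused media. The log2 fold change was -1.05 (standard error 0.16, adjusted p = 0.00233), and -1.37 and -1.11 at its other probes. The inhibitor Cdkn1a had 564 and 554 against 306, 358 and 302 with cardiomyocyte media and 997, 1181 and 966 with unused media (0.78, standard error 0.17, adjusted p = 0.0207), with 0.51 and 0.44 at its other probes. Of 24 tested genes of G1 cyclins, inhibitors and p53 targets, 3 rose (Cdkn1a, Ccnd3 and Gadd45b) and 2 fell (Ccnd1 and Rbl1). Together they are 20.8% of the list, where 6.91% of all tested genes were called. The call of Ccnd1 ended without supernatant replicate 2 (adjusted p = 0.18) and that of Gadd45b without supernatant or cardiomyocyte media replicate 1 (adjusted p = 0.101). Those of Cdkn1a, Ccnd3 and Rbl1 ended without any 1 of supernatant replicates 1 and 2 and cardiomyocyte media replicate 1 (adjusted p = 0.224 to 0.4), and also without replicate 3 (Cdkn1a and Rbl1) or 2 (Ccnd3 and Rbl1) of cardiomyocyte media (adjusted p = 0.0631 to 0.0739).

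Genes of cholesterol synthesis moved the other way. Of 18 tested genes that make cholesterol or take it up, 10 rose and none fell (median log2 fold change 0.76). The rises are 55.6% of the list, where 2.93% of all tested genes rose. Both supernatant arrays lay above all arrays of both other groups for 13 of the 18, which held for 4.42% of all tested genes. Msmo1, a demethylase of sterol synthesis, had 3963 and 3992 with the supernatant, against 1984, 2380 and 2063 with cardiomyocyte media and 2282, 2243 and 2465 with unused media. The log2 fold change was 0.91 (standard error 0.17, adjusted p = 0.00640). Insig1, which holds SREBP proteins in the endoplasmic reticulum, had 401 and 635 against 233, 345 and 339 with cardiomyocyte media and 238, 209 and 199 with unused media (0.81, standard error 0.16, adjusted p = 0.0120), with 1.11 and 1.04 at its other probes. The other calls were of Tm7sf2, Lss, Hsd17b7, Mvd, Sc5d, Fdps, Nsdhl and Sqle, from 0.74 to 1.03. Against unused media the list's median log2 difference was 0.92 with the supernatant and 0.42 with cardiomyocyte media. Hmgcs1, the synthase of the first committed steps, had 0.61 and did not pass (adjusted p = 0.0758). Each of these calls ended in some fit that left out 1 array. Without either supernatant array, or without cardiomyocyte media replicate 1, none of the list was called, and without cardiomyocyte media replicate 2 or 3 there were 2 and 6. Without a chip term 3 were called. Of 17 tested genes of fatty acid synthesis, the malic enzyme Me1 (1.30), the citrate lyase Acly (0.85) and the elongase Elovl6 (0.68) rose. They are 17.6% of the list, where 2.93% of all tested genes rose. The fatty acid synthase Fasn had 0.01. All 3 calls ended without any 1 of supernatant replicates 1 and 2 and cardiomyocyte media replicate 1 (adjusted p = 0.0949 to 0.416), and that of Elovl6 also without cardiomyocyte media replicate 2 or 3 or unused media replicate 2 (adjusted p = 0.0559 to 0.0867).

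To show the sequence upstream of genes that moved together, the 120 bases before the start of the RefSeq transcript are printed for 4 mitosis genes and 3 sterol genes, read on the strand of the gene in GRCm38.p6. Capitals mark the CCAAT box or its reverse complement and, in the mitosis genes, the cell cycle homology region TTTGAA or its reverse complement. They were taken in order of p from the called members whose window lies outside the annotated gene, and those with a match are shown. Birc5 and Insig1, taken by the same rule, held no match in this window.
Plk1, mitotic kinase, chr7:122159315-122159434, plus strand: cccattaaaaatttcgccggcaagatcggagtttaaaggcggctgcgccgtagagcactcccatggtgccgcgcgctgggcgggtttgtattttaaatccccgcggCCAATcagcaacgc
Kif4, chromosome-binding kinesin, chrX:100625945-100626064, plus strand: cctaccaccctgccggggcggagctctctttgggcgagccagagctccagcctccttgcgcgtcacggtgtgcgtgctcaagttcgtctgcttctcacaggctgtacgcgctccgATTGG
Cdc20, activator of the anaphase-promoting complex, chr4:118437344-118437463, minus strand: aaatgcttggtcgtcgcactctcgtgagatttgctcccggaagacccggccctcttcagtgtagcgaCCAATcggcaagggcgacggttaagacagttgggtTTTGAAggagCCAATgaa
Kif11, spindle motor, chr19:37376262-37376381, plus strand: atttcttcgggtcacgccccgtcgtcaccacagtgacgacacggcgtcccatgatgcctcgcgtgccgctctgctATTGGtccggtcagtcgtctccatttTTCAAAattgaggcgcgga
Msmo1, sterol demethylase, chr8:64733579-64733698, minus strand: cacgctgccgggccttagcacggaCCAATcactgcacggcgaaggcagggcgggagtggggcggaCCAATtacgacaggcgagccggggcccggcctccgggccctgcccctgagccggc
Tm7sf2, sterol reductase, chr19:6067851-6067970, minus strand: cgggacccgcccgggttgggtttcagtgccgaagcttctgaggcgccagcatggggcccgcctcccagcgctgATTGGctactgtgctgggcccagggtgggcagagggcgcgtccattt
Mvd, mevalonate diphosphate decarboxylase, chr8:122443423-122443542, minus strand: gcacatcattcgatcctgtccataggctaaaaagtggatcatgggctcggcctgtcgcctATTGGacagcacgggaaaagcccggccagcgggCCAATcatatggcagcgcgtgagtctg
Searched on both strands of the 250 bases before the start, CCAAT was in 18 of 23 listed promoters of the tested mitosis genes (22 of 27 genes had one), in 15 of 18 of the cholesterol genes and in 24 of 30 of the histone genes, and in 33.8% of all 32851 promoters. In DNA replication genes it was in 23 of 41 and in NRF2 targets in 15 of 33. TTTGAA was in 7 of 23 mitosis promoters, 13 of 30 histone promoters, 6 of 41 DNA replication promoters, 1 of 18 cholesterol promoters, 6 of 33 promoters of NRF2 targets and 16% of all. The sterol response element TCACCCCAC was in 1 of 18 cholesterol promoters, 1 of 30 histone promoters and 0.496% of all. It was in none of the sterol gene windows printed. The antioxidant response element TGACNNNGC, where N is any base, was in 6 of 33 promoters of NRF2 targets and 10.2% of all. It was in 6 of 41 DNA replication, 2 of 23 mitosis, 2 of 18 cholesterol and 1 of 30 histone promoters. A match describes these letters only.

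**Figure D2:**
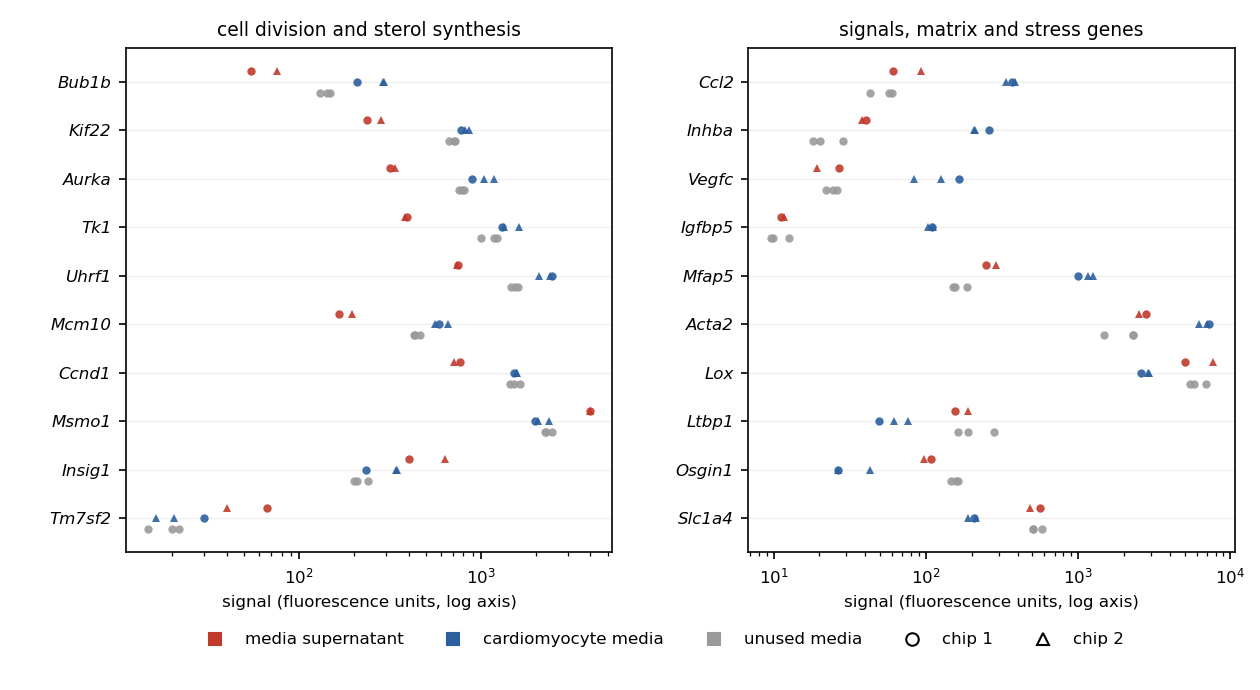
Signal on each array of genes of cell division and sterol synthesis (left) and of signals, matrix and stress genes (right), on a log axis, with the media supernatant in red, cardiomyocyte media in blue and unused media in grey (circles chip 1, triangles chip 2). Tk1 lies at 391 and 381 with the supernatant, below 1299 to 1622 with cardiomyocyte media, and Msmo1 at 3963 and 3992, above 1984 to 2380.

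Chemokines and signalling proteins went in both directions. Of 21 tested genes of chemokines, cytokines and the acute phase, 6 rose and 7 fell with the supernatant. These calls are 61.9% of the list, against 6.91% of all tested genes. Ccl11, eotaxin, which attracts eosinophils, had 49.1 and 68.8 with the supernatant, against 728, 678 and 563 with cardiomyocyte media and 56.8, 44.7 and 79.3 with unused media. Its log2 fold change was -3.16 (standard error 0.23, adjusted p = 2.28e-05), with -2.57 at a second probe. Ccl9 had 20.5 and 23 with the supernatant, against 205, 273 and 259 with cardiomyocyte media (-2.74, standard error 0.19). The monocyte chemokine Ccl2 had 61.1 and 92.6 against 365, 385 and 335 with cardiomyocyte media and 59.6, 43.2 and 57.4 with unused media (-2.01, standard error 0.19, adjusted p = 1.57e-04). For these chemokines the supernatant arrays were at or near the level of unused media. The alarmin Il33 was detected on no supernatant array and on all 3 arrays with cardiomyocyte media, at least 3.63-fold lower, and the NF-kappaB inhibitor Nfkbia had -1.05. The remaining falls were those of Ccl5 and Tnfaip3 (both -0.87). The genes that rose were the pattern recognition proteins Ptx3 (1.70) and Tlr2 (1.22), the acute phase protein Serpina3n (1.05), Il18 (0.78), Il11 (0.74) and Cx3cl1 (0.68). Ptx3 had 265 and 370 with the supernatant, against 98.1, 89.4 and 73.1 with cardiomyocyte media and 737, 443 and 758 with unused media. The calls of Il33 and Ptx3 ended without supernatant replicate 2 (adjusted p = 0.0581 and 0.197). Those of Nfkbia, Tlr2, Serpina3n, Ccl5, Tnfaip3, Il18, Il11 and Cx3cl1 ended without any 1 of supernatant replicates 1 and 2 and cardiomyocyte media replicate 1 (adjusted p = 0.0714 to 0.628). The last 5 also ended without cardiomyocyte media replicate 3, all but Ccl5 without replicate 2, and Il18 without unused media replicate 2 (adjusted p = 0.054 to 0.127). The calls of Ccl11, Ccl9 and Ccl2 passed in every such fit.

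Among ligands and receptors of the TGF-beta family, the activin subunit Inhba had 40.7 and 38.1 with the supernatant, against 259, 211 and 208 with cardiomyocyte media and 28.6, 20.1 and 18.2 with unused media (log2 fold change -2.15, standard error 0.18, adjusted p = 4.83e-05). The study added the growth factor TGFB2 to cultures, and reported its gene as up-regulated over unused media with both cardiomyocyte media and the supernatant. Tgfb2 had 496 and 375 with the supernatant, against 567, 542 and 489 with cardiomyocyte media and 180, 157 and 142 with unused media. Its difference of -0.33 (95% interval -0.72 to 0.06, adjusted p = 0.358) did not pass, although both arrays with the supernatant lay above all 3 with unused media. Ltbp1, which stores latent TGF-beta in the matrix, had 1.34 at the tested probe and -0.20 and 0.05 at its other probes, so its direction depends on the probe, and its call ended without any 1 of supernatant replicates 1 and 2 and cardiomyocyte media replicate 1 (adjusted p = 0.0864 to 0.13). Of 17 tested TGF-beta targets, 4 rose and 2 fell (35.3% called, against 6.91% of all tested genes). Smooth muscle actin (Acta2) had 2803 and 2528 with the supernatant, against 7251, 7036 and 6212 with cardiomyocyte media and 1470, 2279 and 2292 with unused media (-1.37, standard error 0.22, adjusted p = 0.00253), with -1.61 to -1.51 at 3 other probes. Lox, which crosslinks collagen and elastin, had 5002 and 7650 against 2574, 2926 and 2860 with cardiomyocyte media and 6886, 5810 and 5414 with unused media (1.21, standard error 0.18). The call of Lox ended without supernatant replicate 2 (adjusted p = 0.23), and that of Acta2 without either supernatant array or without cardiomyocyte media replicate 1 (adjusted p = 0.0585 to 0.13).

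Of 23 tested growth factors and their receptors, 3 rose and 4 fell (30.4% called, against 6.91% of all tested genes). Vegfc, which drives growth of lymphatic vessels, had 26.9 and 19.4 with the supernatant, against 166, 84.0 and 125 with cardiomyocyte media and 24.6, 26.2 and 22.1 with unused media (log2 fold change -1.89, standard error 0.19, adjusted p = 2.22e-04). Vegfa (-0.78), Angpt2 (-1.01) and Angptl4 (-1.08) were the other falls, and Vegfd (1.18), Fgf10 (1.33) and Pdgfc (0.78) the rises. Igfbp5, a binding protein of insulin-like growth factors, was detected on no supernatant array and on all with cardiomyocyte media, at least 3.68-fold lower. In the matrix, 5 of 15 tested genes of elastic fibres and small proteoglycans fell (Prelp, Fbln1, Mfap5, Mfap4 and Lum) and 2 rose (Lox and Ogn). Together they are 46.7% of the list, against 6.91% of all tested genes. Mfap5, a protein of microfibrils, had 247 and 289 with the supernatant, against 992, 1250 and 1164 with cardiomyocyte media and 155, 150 and 186 with unused media (-1.98, standard error 0.17, adjusted p = 6.15e-05). Of 19 tested collagen genes, 2 fell, Col15a1 (-1.38) and Col18a1 (-0.89), and none rose. These calls are 10.5% of the list, not far from the 6.91% called among all tested genes. The fibrillar chains Col1a1 and Col1a2 had -0.62 and -0.49 and did not pass. The calls of Angptl4 and Vegfd ended without supernatant replicate 2 (adjusted p = 0.147 and 0.152). Those of Vegfa, Angpt2, Fgf10, Pdgfc, Lum, Ogn, Col15a1 and Col18a1 ended without any 1 of supernatant replicates 1 and 2 and cardiomyocyte media replicate 1 (adjusted p = 0.0509 to 0.767). Without cardiomyocyte media replicate 2 those of Vegfa, Angpt2, Pdgfc and Col18a1 ended too, and without replicate 3 those of Pdgfc, Lum, Col15a1 and Col18a1 (adjusted p = 0.0516 to 0.109).

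NRF2 is a factor that answers oxidants and electrophiles. Of 31 tested targets, 11 rose with the supernatant, none fell and 20 did not pass (median log2 fold change 0.31). The rises are 35.5% of the list, where 2.93% of all tested genes rose. Against unused media the list's median log2 difference was -0.27 with the supernatant and -0.73 with cardiomyocyte media. After Gstm1 the members with the smallest p were Osgin1 and Aldh3a1. Osgin1 had 108 and 97.7 with the supernatant, against 26.7, 26.3 and 43.2 with cardiomyocyte media and 162, 146 and 159 with unused media (1.34, standard error 0.19, adjusted p = 0.00173). Aldh3a1, an aldehyde dehydrogenase that is also a target of the aryl hydrocarbon receptor, had 55.1 and 80.8 with the supernatant, against 12.2, 26.6 and 18.7 with cardiomyocyte media (detected on 2 of 3 arrays) and 484, 384 and 341 with unused media (1.33, standard error 0.19, adjusted p = 0.00176). For Aldh3a1 the supernatant arrays lay between the other groups. The quinone reductase Nqo1 had 1.33, heme oxygenase Hmox1 1.13 and the glutathione enzyme Gclm 0.97. Other members had smaller values, with Txnrd1 at 0.36 and Srxn1 at -0.05. Without either supernatant array, or without cardiomyocyte media replicate 1, 2 of the list were called, and 6 and 7 without cardiomyocyte media replicate 2 or 3. Of 29 tested ATF4 targets and genes of amino acid supply, 5 rose and 2 fell (24.1% called, against 6.91% of all tested genes). The amino acid transporters Slc1a4 (1.28), Slc6a9 (1.14) and Slc38a2 (1.37) were among the rises. Slc1a4 had 559 and 485 with the supernatant, against 206, 189 and 213 with cardiomyocyte media and 507, 504 and 575 with unused media. Atf4 itself had 0.62 and asparagine synthetase (Asns) 0.07, neither past the test. The call of Slc1a4 ended without supernatant replicate 2 (adjusted p = 0.055), and those of Slc6a9 and Slc38a2 without any 1 of supernatant replicates 1 and 2 and cardiomyocyte media replicate 1 (adjusted p = 0.0553 to 0.1).

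**Figure D3:**
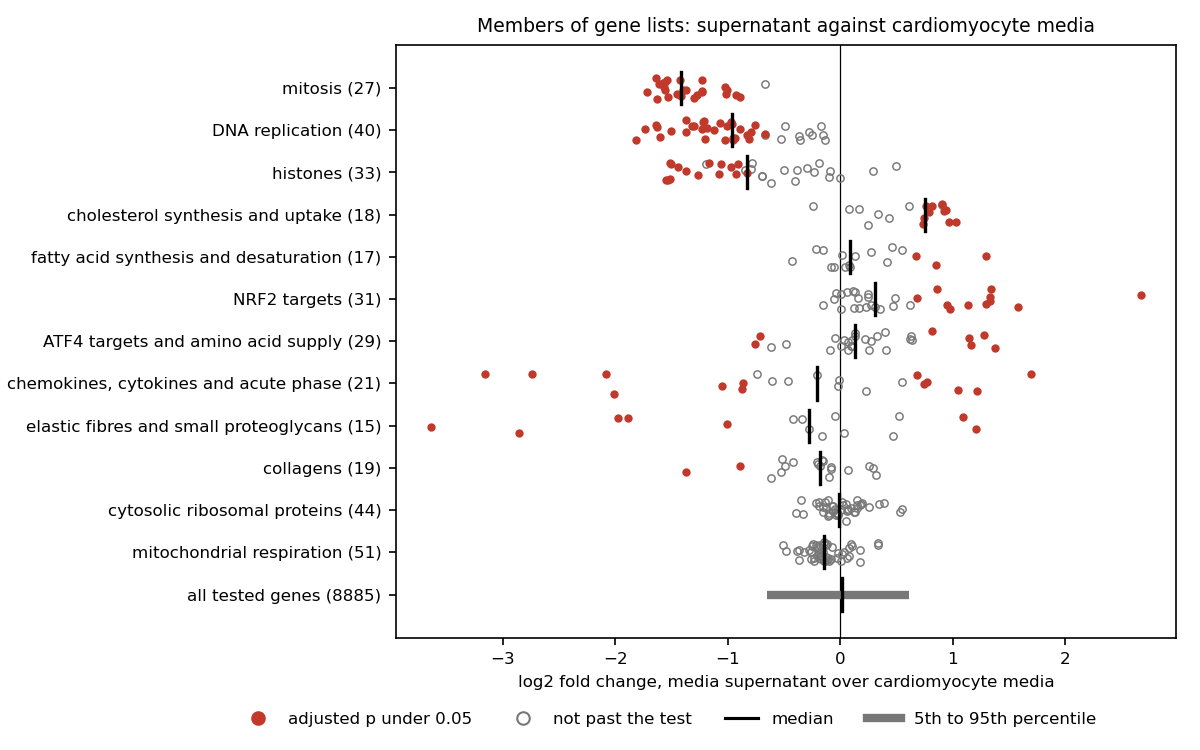
Log2 fold change of the supernatant over cardiomyocyte media for each tested member of 12 gene lists, with members past the test filled in red, others open, and the median of each list as a black bar; the grey bar spans the 5th to the 95th percentile of all 8885 tested genes. Mitosis has its median at -1.42 and cholesterol synthesis at 0.76, while ribosomal proteins lie around -0.01.

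Hyaluronan genes, the subject of the study, showed 1 difference that passed, a share of 9.09% that is near the 6.91% of all tested genes. Has2, the main hyaluronan synthase of fibroblasts, had 368 and 381 with the supernatant, against 250, 380 and 302 with cardiomyocyte media and 439, 276 and 390 with unused media. The difference was 0.32 (95% interval -0.17 to 0.80, adjusted p = 0.513). Has1, Has3 and the hyaluronan receptor Hmmr had no probe detected on at least 2 arrays and were not tested. The receptor Cd44 had 140 and 168 against 156, 210 and 226 with cardiomyocyte media (-0.26, 95% interval -0.74 to 0.22), and 0.40 and -0.04 at its other probes. Of 11 tested genes of hyaluronan synthesis, turnover and binding, Cemip2, a cell surface protein described as a hyaluronidase, rose (0.66, adjusted p = 0.0336) and no other passed. Its other probes gave 0.65 and 0.06. Its call ended without either supernatant array, without any array of cardiomyocyte media and without unused media replicate 2 (adjusted p = 0.0528 to 0.6). The reference genes that the study used for real-time PCR did not pass: Gapdh had -0.20 (95% interval -0.56 to 0.16), Actb 0.16 (-0.28 to 0.61), with -0.16 to 0.36 at 4 other probes, and Rplp0 0.13 (-0.26 to 0.52).

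**Figure D4:**
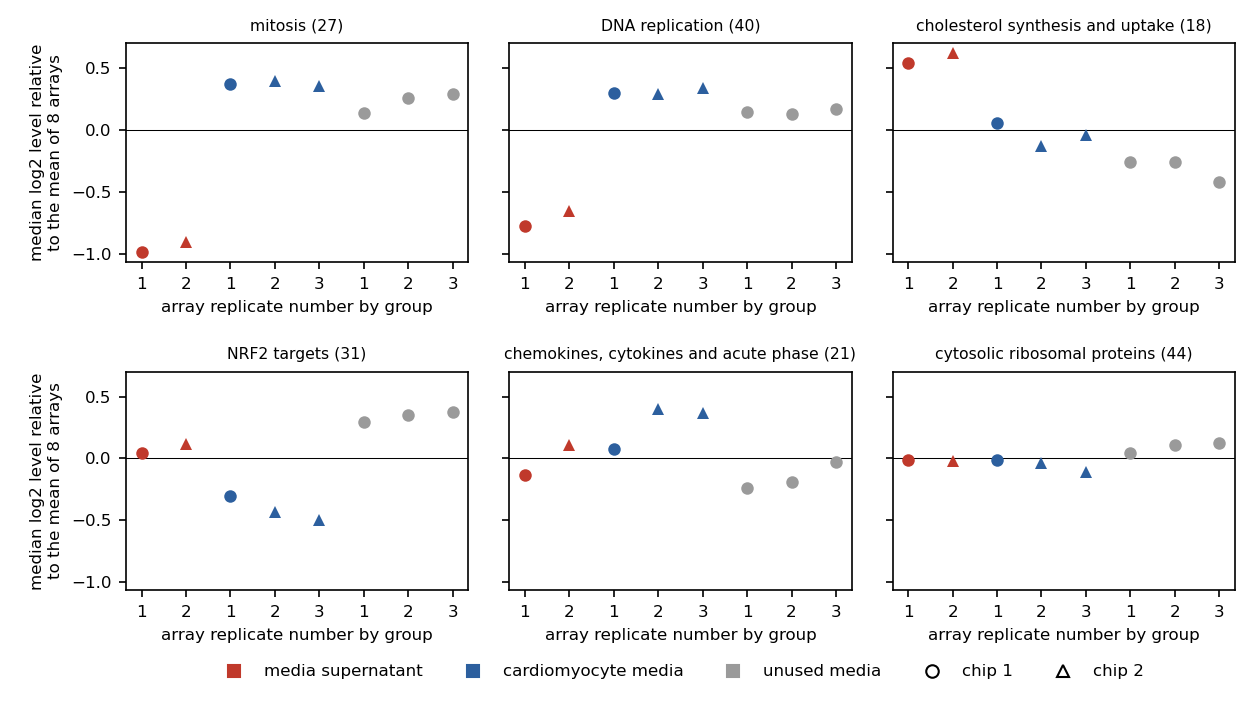
Median log2 level of 6 gene lists on each array, relative to each gene's mean over the 8 arrays, by group (supernatant in red, cardiomyocyte media in blue, unused media in grey) and chip (circles chip 1, triangles chip 2). Mitosis genes lie at -0.99 and -0.91 with the supernatant and at 0.35 to 0.39 with cardiomyocyte media, while cholesterol genes lie at 0.55 and 0.62 against -0.13 to 0.06.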

How the data were processed

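RNA of 8 fibroblast samples was hybridised to Illumina MouseRef-8 bead arrays. The deposited intensities are mean bead intensity per probe, exported by the authors before background subtraction from BeadStudio, whose version is 3.3 per the submitters' processing notes. The deposited detection p-value sets each probe against the negative controls of its array. A second deposited table holds intensity values that the authors background-subtracted and cubic spline normalized, and was used as an alternative only. No per-sample column lacked a sample.

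Intensities were corrected with limma's nec (normexp, controls inferred from the detection p, offset 16), quantile normalized and put on the log2 scale (R 4.3.3, limma 3.58.1). Printed signals have the offset removed. Of 25697 probes, 23978 had 1 gene name and 1719 had none or several, and 8 names were updated. Among 16590 genes with a probe, 8885 had a probe detected (p under 0.05) on at least 2 arrays, and the brightest such probe stood for the gene. limma (lmFit, eBayes) fitted group and chip over all 8 arrays, with Benjamini-Hochberg adjustment over 8885 genes. The fit was tested on simulated data. The study's own test in BeadStudio was not repeated.

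Named genes were the 10 largest rises and falls with 1 sign on both chips, the 3 members of smallest p in each of 42 lists, and genes that the study examined (Has1, Has2, Has3, Cd44, Hmmr, Tgfb2, Gapdh, Actb, Rplp0). Other genes were named after their values were seen. The lists and the comparison were chosen with earlier results of these data known. Alternatives varied background, normalization, detection filter, probe choice, variance model, chip term and arrays. Promoter sequences are those of RefSeq on GRCm38.p6.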

Additional observations from a re-analysis of the deposited data

How the results depend on the processing

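No named gene that was called changed direction under any alternative. The 614 genes called (260 higher, 354 lower) became 1665 (876 and 789) with array weights, 37 (18 and 19) on chip 1 only, 242 (77 and 165) on chip 2 only, and 342 (123 and 219) with the replicate block in place of chip. The fit of the 5 arrays gave 398 higher and no chip term 156 higher. The replicate numbers pair the samples only by number, and the block left 337 of the 614. Leaving out 1 array gave 104 to 874 calls, 37 to 408 higher and 67 to 466 lower. With replicate 1 of the supernatant or of cardiomyocyte media left out, the comparison rests on chip 2 alone, and without supernatant replicate 2 on 1 array a group, assumed to vary like the rest. The 26 falls in mitosis became 0 on chip 1 only and 10 to 27 on leaving out 1 array. The 30 in DNA replication became 0 on chip 1, 15 on chip 2 and 9 to 30 on leaving out 1 array. The 15 histone falls became 24 with array weights, 1 on chip 1 and 3 to 20 on leaving out 1 array. The 10 rises in cholesterol synthesis became 5 with the authors' normalized values, 5 with no detection filter, 3 with no chip term, 0 on chip 1, 1 on chip 2, 1 with the replicate block and 0 to 12 on leaving out 1 array. The 11 rises among NRF2 targets became 6 with no detection filter, 1 on chip 1, 5 on chip 2, 6 with the replicate block and 2 to 11 on leaving out 1 array. The 7 chemokine falls became 4 with detection on all arrays, 3 on chip 1, 4 on chip 2 and 3 to 8 on leaving out 1 array. Median scaling moved the share of calls that were higher to 53.3%, against 42.3%, and array weights to 52.6%. Of the values of single named genes, many of them not called in the main fit, 4010 kept their side of the threshold, 586 lost the call and 94 gained it. The cause was not tested. Signals near background limit dim genes to bounds.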

Other observations

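Several other lists held a larger share of calls than the 6.91% of all tested genes. Among these, calls were 50% of 4 tested aryl hydrocarbon receptor targets, 25% of 8 retinoic acid targets and 23.5% of the immediate early list. They were 16.7% of 30 matrix proteases and inhibitors and 15.4% of 26 genes of hypoxia and glycolysis. Calls of the interferon list were 9.52% of its tested genes, near the share of all. Usp18, an enzyme that removes the ubiquitin-like ISG15, had 103 and 110 with the supernatant, against 11.7, 14 and 17 with cardiomyocyte media, where 1 of 3 arrays detected it, and 45.2, 45.7 and 21 with unused media (log2 fold change 2.05, adjusted p = 4.06e-04 from limma, with 1.34 at its other probe). With most cardiomyocyte media arrays near background, the size of this difference is uncertain. It was 1 of 21 tested interferon genes that rose, and 1 fell. Mylk, the myosin light chain kinase, had 52.3 and 45.9 with the supernatant, against 183, 248 and 252 with cardiomyocyte media and 137, 99.5 and 105 with unused media (-1.86, adjusted p = 2.59e-04). Adam23, a membrane protein without protease activity, had 3779 and 3658 with the supernatant, against 818, 938 and 952 with cardiomyocyte media (2.04), with 0.62 and 0.96 at its other probes. The calls of these 3 genes passed in each fit that left out 1 array. Among 17 tested immediate early genes, Dusp4 (-1.32), Fos (-0.94), Klf2 (-0.94) and Junb fell, and each call ended without supernatant replicate 2 (adjusted p = 0.243 to 0.561). Those of Junb, Fos and Klf2 also ended without replicate 1 of the supernatant or of cardiomyocyte media, and those of Fos and Klf2 without cardiomyocyte media replicate 2, and that of Klf2 without replicate 3.

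No gene passed among 44 tested ribosomal proteins (4 at an unadjusted p under 0.05), 51 of mitochondrial respiration (3), 32 of the proteasome (1) or 22 of ribosome biogenesis (0) by limma. Plau, the urokinase protease, had 390 and 504 with the supernatant, against 1366, 1621 and 1730 with cardiomyocyte media and 10.7, 87.9 and 131 with unused media. Its difference of -1.73 did not pass (adjusted p = 0.0896). In 25 alternatives it lay between -1.78 and -1.50, and it passed in 8 and not in 17.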
